A study of Mus musculus with 4 samples.

Results

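The genes described here are the Ifi200 family of the mouse, also called the PYHIN family, which lies in 1 cluster on chromosome 1. They were taken from a list of 9 names: Ifi203, Ifi204, Ifi205, Ifi207, Ifi211, Mndal, Mnda, Pyhin1 and Aim2. Each name was matched to probe sets that carry exactly 1 gene symbol. In RefSeq, Mnda is an older name of Ifi211 and Pyhin1 one of Ifi209, so the names stand for 8 genes. A probe set of their own was found for 6 of them, Aim2, Ifi209, Ifi207, Ifi204, Mndal and Ifi211, out of 17787 named genes kept on the arrays. Ifi203 and Ifi205 were covered only by probe sets shared with other genes and are given apart. The names were selected on results of these same 4 arrays (levels, and differences between OVA and PBS and between ages), and a gene's probe set was to be chosen by its brightness, though each of the 6 had 1 probe set. The levels and differences below are therefore a description.

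PYHIN proteins typically, though not in every case, join a pyrin domain, which binds other pyrin domains, to a HIN domain, which binds DNA. Aim2 is the member whose role is best known: it binds double-stranded DNA in the cytosol, recruits the adaptor Pycard and so activates caspase-1, which matures interleukin-1 beta and interleukin-18. Many genes of the family are induced by interferon, and they are expressed mainly in leukocytes, microglia and other macrophages included.

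The arrays measured RNA of microglia, the resident macrophages of the brain, from male C57BL/6J mice. The 4 groups were OVA (allergy) and PBS (control) at postnatal day 70 (P70) and OVA and PBS at postnatal day 30 (P30), each collected 1 day after an intranasal challenge. Material of 4 samples was pooled for each group and put on 1 array, so there is no replicate, no spread within a group and no test, and all differences are between 2 arrays, whose number limits the precision. Values are log2 of the deposited intensity; a gene is called expressed when its mean over the 4 arrays is at or above 7.19, the median of all genes kept, which holds for 8894 genes and for all 6 members. The median intensity over all probe sets was 105 in OVA and 111 in PBS at P70, and 132 in OVA and 131 in PBS at P30. Of 14 microglia marker genes 13 were found, and all 13 were expressed on each array.

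The windows around the start sites show how closely the family genes resemble each other there. Probe sets bind transcripts, and no transcript or probe sequences were compared. The windows therefore do not measure how far probe sets can tell the genes apart. RefSeq (GRCm38.p6) gave windows for 12 of the 14 genes of the family in the cluster, among them 5 of the 6 members; Ifi204 has none in the table. The stretches shown are the 250 bases before the start of transcription, on the gene's own strand. Capitals mark GAAA, any 2 bases and GAAA again, the core of the element that interferon regulatory factors bind, searched on both strands. The stretches lie at chr1:173741810-173742059 (minus strand) for Ifi207, chr1:173913047-173913296 (minus strand) for Ifi211, chr1:173880188-173880437 (minus strand) for Mndal, chr1:173630609-173630858 (plus strand) for Ifi209 and chr1:173420354-173420603 (plus strand) for Aim2. For Mndal the first of 2 windows is shown.
Ifi207: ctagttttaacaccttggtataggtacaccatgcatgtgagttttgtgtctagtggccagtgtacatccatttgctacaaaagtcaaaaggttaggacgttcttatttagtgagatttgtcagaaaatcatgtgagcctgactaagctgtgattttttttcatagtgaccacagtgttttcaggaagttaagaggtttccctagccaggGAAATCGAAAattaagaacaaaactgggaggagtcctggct
Ifi211: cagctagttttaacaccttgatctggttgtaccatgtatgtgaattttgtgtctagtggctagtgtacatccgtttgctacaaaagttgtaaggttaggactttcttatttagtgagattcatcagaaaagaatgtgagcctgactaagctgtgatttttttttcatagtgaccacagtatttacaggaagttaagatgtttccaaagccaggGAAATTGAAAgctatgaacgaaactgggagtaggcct
Mndal: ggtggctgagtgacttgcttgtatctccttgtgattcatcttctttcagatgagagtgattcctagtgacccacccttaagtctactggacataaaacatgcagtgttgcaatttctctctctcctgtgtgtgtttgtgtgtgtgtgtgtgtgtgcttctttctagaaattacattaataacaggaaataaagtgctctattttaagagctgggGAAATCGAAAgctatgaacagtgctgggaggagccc
Ifi209: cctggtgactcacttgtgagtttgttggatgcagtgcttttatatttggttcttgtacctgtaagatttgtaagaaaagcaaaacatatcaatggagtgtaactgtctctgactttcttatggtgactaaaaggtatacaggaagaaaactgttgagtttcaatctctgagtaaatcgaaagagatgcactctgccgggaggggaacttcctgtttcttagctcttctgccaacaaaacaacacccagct
Aim2: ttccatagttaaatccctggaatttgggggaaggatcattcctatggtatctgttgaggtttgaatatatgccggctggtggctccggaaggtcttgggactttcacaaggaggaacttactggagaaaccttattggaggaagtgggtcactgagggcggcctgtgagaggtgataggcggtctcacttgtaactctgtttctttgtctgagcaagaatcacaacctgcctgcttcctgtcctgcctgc

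The full 300-base windows of Ifi207 and Ifi211 aligned over 297 columns with 87.5% identity, and those of Mndal and Ifi203 over 299 columns with 94.3%. Ifi209 was closest to Ifi214, with 95.7% over 300 columns, whereas the best alignment of Aim2 with any other family window covered 27 columns. Among the members, Ifi207 and Ifi211 thus form a pair of like windows, and Aim2 stands alone. This core was present in 10 of the 14 family windows, belonging to 9 of 12 genes, against 3.44% of all 32851 windows of the table. Some of the windows that carry it are near copies, such as Ifi206 and Ifi208 with 98.9% identity over 282 columns. The family windows are therefore not separate cases, and the 2 shares are not directly comparable. The core began 41 bases before the start in Ifi207, 37 in Ifi211 and 36 in Mndal, and no match was found in Aim2 or Ifi209. Its other carriers were Ifi206, Ifi214, Ifi213, Ifi208, Ifi203 and Ifi205. Of these, Ifi206, Ifi213 and Ifi208 had probe sets of their own. Their differences between OVA and PBS at P70 were 0.16, 0.18 and -0.09. Whether the core bears on the levels was not tested. Of 2 further motifs, TTCNNNGAA, the core bound by STAT dimers, occurred in 1 family window (Ifi202b; 8.30% of all windows) and GAGGAAGT, a core of ETS factors such as PU.1, in 1 (Aim2; 3.20% of all windows). No family window held more than 1 of these 3 motifs, so no matches of different motifs overlapped. A match is a run of letters and not a shown site, and the absence of one says only that these letters are not in the window.

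The comparison of the allergy group with its control at P70 separated the members. Ifi207, Ifi204, Ifi211 and Mndal were between 1.86-fold and 2.35-fold higher in OVA, while Ifi209 was 1.12-fold higher and Aim2 differed by -0.02 on the log2 scale. A difference of 1.5-fold or more was found for 4 of the 6 members, all of them higher in OVA, and for 5.24% of all expressed genes (4.01% higher and 1.23% lower). The median difference of the members was 1.00, against 0.09 over all expressed genes. As the RNA is of a bulk isolate, more cells of a type and more RNA per cell cannot be told apart.

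Ifi204, a DNA sensor that signals through Sting1 and is the mouse gene most often set beside human IFI16, was at 11.02 in OVA and 9.79 in PBS at P70, and at 8.25 in OVA and 8.54 in PBS at P30. The OVA array at P70 was thus the highest of the 4 and the OVA array at P30 the lowest. Its difference at P70 was 1.23 (2.34-fold), the 16th highest of the 8894 expressed genes. At P30 it was -0.28, and 0 of the 6 members reached 1.5-fold there in either direction, which 1.57% of all expressed genes did (0.663% higher and 0.911% lower).

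Ifi207, a PYHIN gene with few described functions, was at 10.94 in OVA and 9.70 in PBS at P70, and at 7.64 in OVA and 8.05 in PBS at P30. It followed the same order of arrays as Ifi204 and had the widest range of the members, 3.30 log2 units. OVA exceeded PBS by 1.24 at P70 (2.35-fold), rank 15 from the top, and lay 0.42 log2 units under PBS at P30 (-0.42), the lowest P30 difference of the 6 members.

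Ifi211, the gene also named Mnda after the human myeloid nuclear differentiation antigen, was at 10.42 in OVA and 9.31 in PBS at P70, and at 7.84 in OVA and 8.02 in PBS at P30. The P70 difference of 1.10 (2.14-fold) ranked 28th from the top, and the P30 difference was -0.18. Mndal, whose name marks its likeness to that antigen, was at 9.54 in OVA and 8.65 in PBS at P70, and at 7.38 in OVA and 7.53 in PBS at P30. Its P70 difference was 0.89 (1.86-fold), rank 66, and its P30 difference was -0.15. In both genes the OVA array was above PBS at P70 and slightly below it at P30; the P30 values of Mndal lay close to the floor of 7.19, so its differences from them are uncertain in size.

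**Figure D1:**
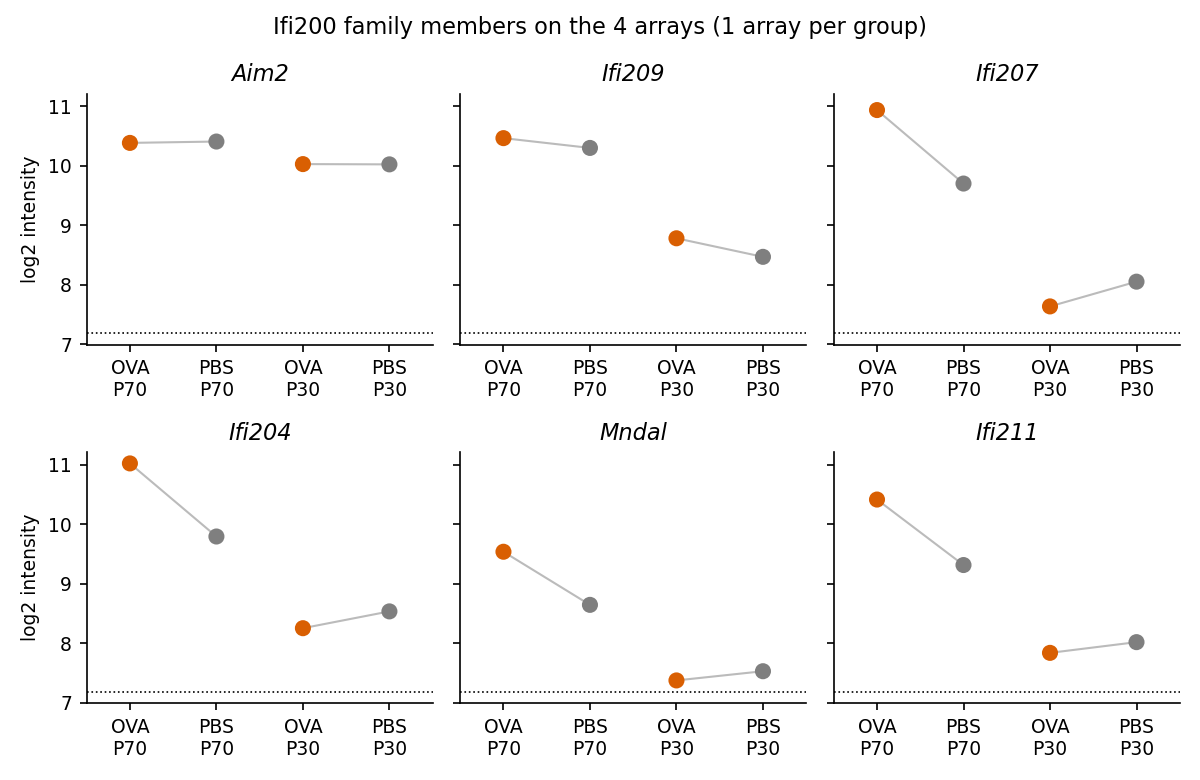
Level of each of the 6 members with a probe set of its own, in log2 intensity (vertical axis), on the OVA and PBS arrays at P70 and P30; each point is 1 array, grey lines join OVA to PBS of 1 age, and the dotted line is the floor of 7.19 for expressed genes. In Ifi207, Ifi204, Mndal and Ifi211 the OVA array at P70 is the highest and the OVA array at P30 the lowest; Aim2 varies by 0.38 in all.

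Ifi209, whose human relative PYHIN1 is described as a nuclear growth regulator, behaved otherwise. It was at 10.46 in OVA and 10.30 in PBS at P70, and at 8.78 in OVA and 8.47 in PBS at P30. OVA was above PBS at both ages, by 0.16 at P70 and 0.31 at P30. On the deposited scale both P70 arrays lay above both P30 arrays, as in each of the other members. Its P70 difference was -0.00053 after centring along the level, so no direction can be given for it at that age.

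Aim2 was at 10.38 in OVA and 10.41 in PBS at P70, and at 10.03 in OVA and 10.02 in PBS at P30. Its differences between OVA and PBS were -0.02 at P70 and 0.0045 at P30. On the deposited scale, the inflammasome sensor of the family was thus the member with the smallest difference between OVA and PBS at each age; after centring along the level its P70 difference was -0.19.

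Setting the differences at P70 beside those at P30, which use separate arrays, asks whether OVA departed from PBS alike at both ages. The P70 difference less the P30 difference was 1.65 for Ifi207, 1.51 for Ifi204, 1.28 for Ifi211 and 1.05 for Mndal, with ranks 11, 19, 46 and 102 from the top among expressed genes. It was -0.03 for Aim2 and -0.15 for Ifi209. Thus 4 of 6 members had a value of at least 1.5-fold, all positive, as did 10.1% of all expressed genes (7.8% positive and 2.29% negative). This is a difference of single arrays and was not tested.

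**Figure D2:**
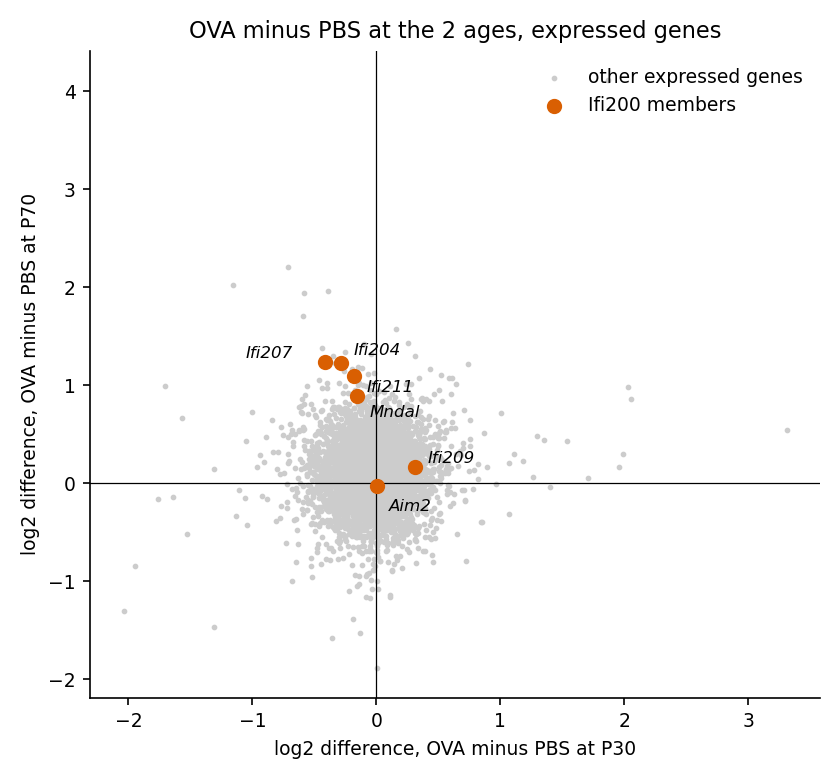
Log2 difference OVA minus PBS at P30 (horizontal axis) and at P70 (vertical axis) for the 8894 expressed genes (grey points, 1 per gene) and the 6 members (orange, named). Ifi207, Ifi204, Ifi211 and Mndal lie together at 0.89 to 1.24 on the vertical and -0.42 to -0.15 on the horizontal axis; Aim2 lies near the origin, and Ifi209 at 0.31 on the horizontal and 0.16 on the vertical axis.

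Along the chromosome, the members with the larger P70 differences were neighbours. RefSeq orders the family genes as Aim2, Ifi206, Ifi214, Ifi213, Ifi209, Ifi208, Ifi207, Ifi204, Ifi203-ps, Mndal, Ifi211, Ifi203, Ifi202b and Ifi205. Each gene from Ifi207 to Ifi211 with a probe set of its own, the pseudogene Ifi203-ps included, was at least 1.5-fold higher in OVA at P70, and none of the 5 measured from Aim2 to Ifi208 was. Ifi203-ps was at 8.80 in OVA and 8.08 in PBS at P70, a difference of 0.72, and at 7.15 in OVA and 7.19 in PBS at P30. On the other side, Ifi206 differed by 0.16 at P70 (7.61 in OVA, 7.45 in PBS), and Ifi213 and Ifi208 lay under the floor on average, with differences of 0.18 and -0.09. This order was looked at after the values were seen.

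The 2 shared probe sets gave smaller P70 differences. The one annotated with Ifi203, Ifi203-ps and a further locus was at 8.36 in OVA and 7.87 in PBS at P70 (a difference of 0.48), and at 6.89 in OVA and 7.19 in PBS at P30 (-0.30). The one annotated with Ifi202b, Ifi205 and a further locus was at 7.66 in OVA and 7.62 in PBS at P70 (0.04), and at 7.22 in OVA and 6.98 in PBS at P30 (0.23). Neither reached 1.5-fold at either age, and neither can be given to 1 gene. Some windows of the family are close copies, such as those of Mndal and Ifi203, but transcript and probe sequences were not compared. A probe set named for 1 member may also bind RNA of another. How much of the likeness between Ifi207, Ifi204, Mndal and Ifi211 comes from such binding was not tested.

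**Figure D3:**
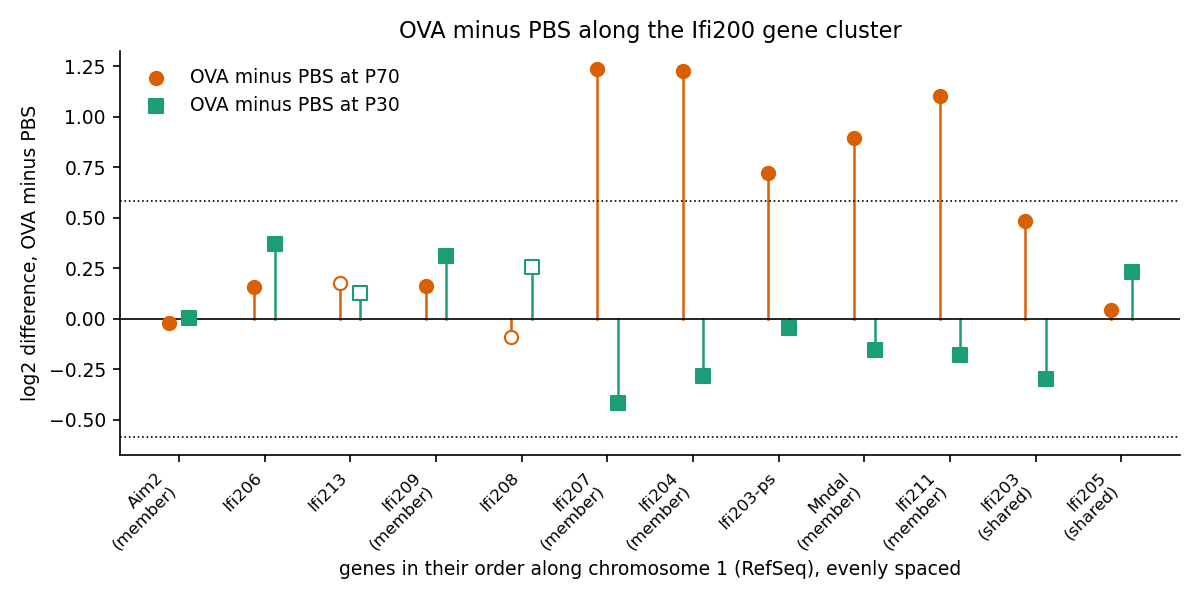
Log2 difference OVA minus PBS at P70 (orange circles) and P30 (green squares) for each family gene with a probe set, in RefSeq order along chromosome 1 with even spacing; open symbols are under the floor, "shared" marks probe sets of several genes, and dotted lines mark 1.5-fold. The P70 values from Ifi207 to Ifi211 lie between 0.72 and 1.24, and those from Aim2 to Ifi208 between -0.09 and 0.18.

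Within each treatment, P70 was set against P30 to ask how the family differed with age. These comparisons share arrays with those above, so the values are set side by side. In OVA mice the difference was 3.30 for Ifi207 (9.85-fold), 2.77 for Ifi204 (6.82-fold), 2.58 for Ifi211, 2.16 for Mndal and 1.68 for Ifi209. In PBS mice it was 1.83 for Ifi209 (3.56-fold), 1.65 for Ifi207, 1.30 for Ifi211, 1.26 for Ifi204 and 1.12 for Mndal. On the deposited scale all 5 genes were thus at least 2-fold higher at P70 in each treatment. After centring along the level the OVA differences of Ifi207 and Ifi204 were 2.62 and 2.0. On that scale Ifi209 in OVA (0.92) and Ifi204 (0.80), Mndal (0.94) and Ifi211 (0.95) in PBS were under 2-fold.

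Many other genes differed between the ages too. In OVA mice 5 of 6 members were at least 1.5-fold apart, all higher at P70, as were 43.3% of all expressed genes (38.7% higher and 4.61% lower). In PBS mice 5 of 6 were, all higher at P70, as were 32.4% of all (29.2% higher and 3.19% lower). The members' median was 2.37 in OVA and 1.28 in PBS, against 0.39 and 0.26 over all expressed genes. The scaling moves these backgrounds: the median of all expressed genes was 0.73 in OVA and 0.50 in PBS after median centring, and -0.0050 and -0.0094 after centring along the level, where 13.4% and 11.6% were higher at P70. The same 5 members remained at least 1.5-fold higher at P70 in both treatments under each of these scalings. At 2-fold on the deposited scale, 20.0% of expressed genes were higher at P70 in OVA and 13.8% in PBS. Ifi207 ranked 31st of 8894 in OVA, and Ifi209 234th in PBS. Aim2 was higher at P70 by 0.36 in OVA and 0.38 in PBS, but after centring along the level its values were -0.56 and -0.31, and after median centring 0.70 and 0.63, so no direction with age can be given for it.

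**Figure D4:**
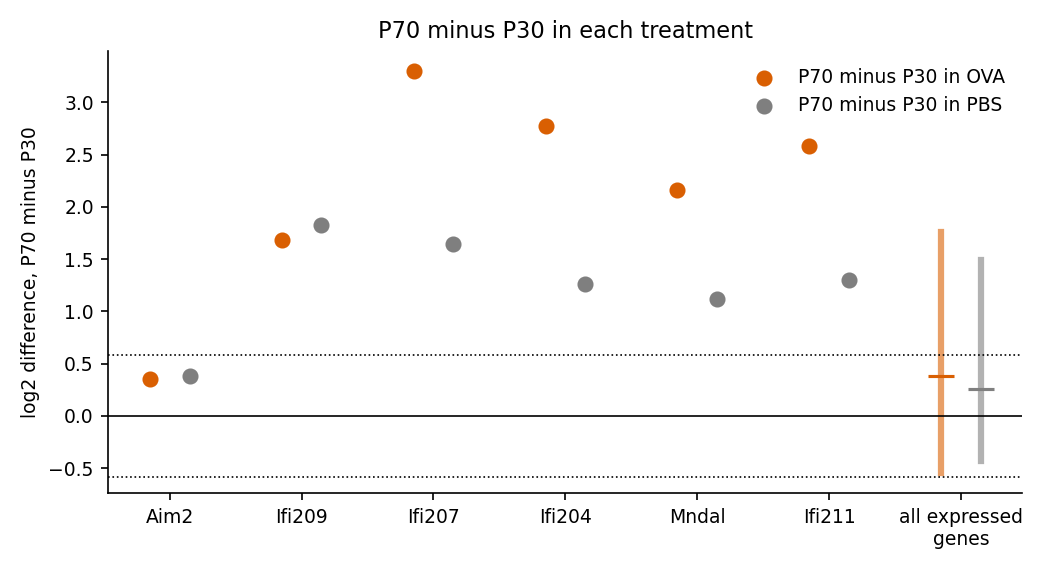
Log2 difference P70 minus P30 for each member in OVA (orange) and PBS (grey) mice; bars at the right span the central 90% of all expressed genes with their median as a tick, and dotted lines mark 1.5-fold. Ifi207, Ifi204, Ifi211 and Mndal have larger values in OVA than in PBS, Ifi209 has 1.68 in OVA and 1.83 in PBS, and Aim2 lies near the median of all genes.

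Genes that act with the family were taken from lists of its pathways. None of the 20 expressed genes of cytosolic DNA sensing through cGAS and STING was at least 1.5-fold higher or lower in OVA, at P70 or at P30, with a median of 0.10 at P70. Sting1, the adaptor downstream of Ifi204 and Cgas, was at 12.81 in OVA and 12.67 in PBS at P70. Irf3, the transcription factor that this pathway activates, had the largest P70 difference of the list, 0.42, and Dhx9, a helicase that can sense nucleic acids, the largest at P30, 0.52.

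With age, 9 of the 20 were at least 1.5-fold higher at P70 in OVA and 6 in PBS, shares near the 38.7% and 29.2% of all expressed genes. After centring along the level the counts were 2 and 3, beside 13.4% and 11.6% of all.

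The list of the inflammasome adaptor, caspases and their products held 9 expressed genes. It covers inflammasomes in general and is not limited to genes downstream of Aim2. None of the 9 reached 1.5-fold between OVA and PBS at P70 or P30. With 5.24% of all expressed genes past that size at P70 and 1.57% at P30, counts of 0 in lists as short as these set them apart from other genes in no way. Casp1 was at 13.96 in OVA and 13.71 in PBS at P70, and Pycard at 12.88 in OVA and 12.94 in PBS. With age, 9 of 9 were at least 1.5-fold higher at P70 in OVA and 8 of 9 in PBS, beside 38.7% and 29.2% of all expressed genes. Their medians were 1.10 and 1.07, against 0.39 and 0.26 over all expressed genes. After centring along the level it was 5 of 9 in each, beside 13.4% and 11.6% of all. Casp1 was higher by 2.49 in OVA and 2.19 in PBS, and Pycard by 2.42 in OVA and 2.0 in PBS.

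Interferon-stimulated genes as a list stayed near the median of all genes at P70. Of 33 expressed, 1 was at least 1.5-fold higher in OVA at P70 and 0 lower, with a median of 0.15, against 0.09 over all expressed genes; after median centring 4 were higher. The 1 gene was Ifitm2, a membrane protein that restricts virus entry, at 10.17 in OVA and 9.24 in PBS. Ms4a4c at 0.55 and Gbp7, an interferon-induced GTPase, at 0.52 came next. At P30 none reached 1.5-fold and the median was 0.04, with Sp100, a component of nuclear bodies, at 0.52. With age, 13 were at least 1.5-fold higher at P70 in OVA and 14 in PBS, and 1 was lower in each, beside 38.7% and 29.2% of all expressed genes that were higher. After centring along the level 7 were higher in each.

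Interferon receptors and RNA sensors complete the pathways around the family. Of 13 expressed interferon receptors and signalling genes, Irf5, a transcription factor downstream of Toll-like receptors, was the 1 gene at least 1.5-fold higher in OVA at P70 (9.99 in OVA and 9.32 in PBS), and the median was -0.01; after centring along the level none reached 1.5-fold. Irf8, a factor that microglia need to develop, differed by 0.45. None of 13 expressed RNA sensors and adaptors reached 1.5-fold at either age, their median at P70 being 0.18, with Trim25, the ligase that activates RIG-I, at 0.31. With age, 7 RNA sensors were at least 1.5-fold higher at P70 in OVA and 5 in PBS, and 5 interferon receptor and signalling genes in OVA and 3 in PBS. Over all expressed genes the shares were 38.7% in OVA and 29.2% in PBS. After centring along the level the RNA sensors were 2 and 2, and the receptor and signalling genes 0 and 0.

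**Figure D5:**
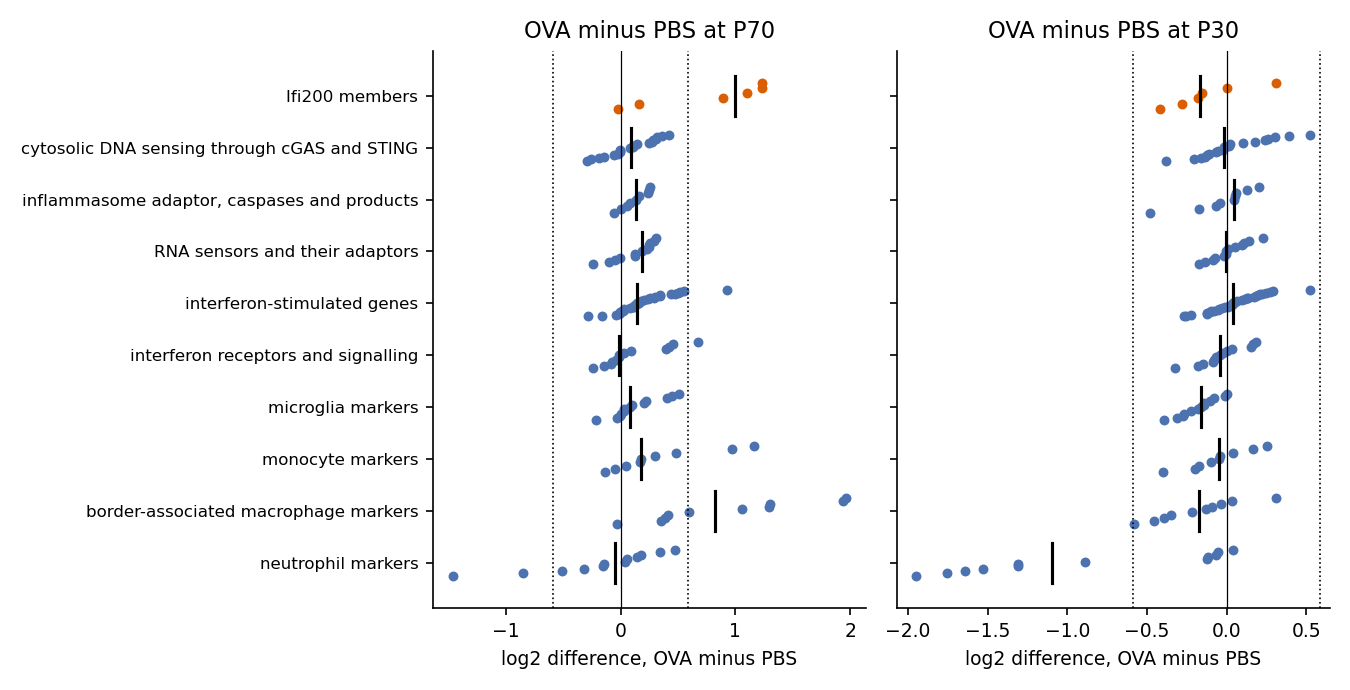
Log2 difference OVA minus PBS at P70 (left) and P30 (right) for the Ifi200 members (orange) and the expressed genes of 9 lists (blue), 1 point per gene; black bars are medians and dotted lines mark 1.5-fold. At P70 the members' median is 1.00 and that of border-associated macrophage markers 0.83, while the other 8 lists have medians between -0.05 and 0.18.

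Markers of other cells were set beside these values, and their lists did not all go the same way. Border-associated macrophages line the meninges and vessels of the brain, and 6 of 10 expressed markers of theirs were at least 1.5-fold higher in OVA at P70, led by Pf4 (11.47 in OVA and 9.51 in PBS) and Ms4a7 (10.77 in OVA and 8.82 in PBS). Of all expressed genes 4.01% were higher by that much, and the count was 5 of 10 after quantile normalization and after centring along the level. The list's intensities summed to 10612.5 in OVA and 4434 in PBS at P70, and to 3159 in OVA and 3578 in PBS at P30. The list was thus higher in OVA at P70 and lower in OVA at P30, as were Ifi207, Ifi204, Ifi211 and Mndal. Of 9 expressed monocyte markers, 2 were at least 1.5-fold higher in OVA at P70, S100a4 at 1.16 and Treml4 at 0.97; Treml4 was above the floor only on the OVA array at P70 (8.05 in OVA and 7.08 in PBS). The monocyte list summed to 24102 in OVA and 21898 in PBS at P70 and to 2654 in OVA and 2565 in PBS at P30. Its P70 sums are dominated by Ly6c2 (14.19 in OVA and 14.14 in PBS). Neutrophil markers summed to 763767 in OVA and 895263 in PBS at P70, and to 30499.7 in OVA and 78684 in PBS at P30. Of 12 expressed neutrophil markers, 7 were at least 1.5-fold lower in OVA at P30 and 2 at P70. Of all expressed genes 0.911% and 1.23% were lower by that much. Microglia markers summed to 858813 in OVA and 824633 in PBS at P70, and to 611660 in OVA and 680491 in PBS at P30.

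Summed intensities in OVA at P70 were 1.11-fold those of PBS for T and NK cell, 1.24-fold for B cell, 1.03-fold for dendritic cell and 1.04-fold for microglia markers. The microglia sum is dominated by very bright genes such as Cx3cr1 (18.39 in both groups at P70). Of the 13 microglia markers 0 reached 1.5-fold at P70, and 2 did after quantile normalization. Their median was 0.08, and the largest differences were 0.51 for P2ry12, 0.45 for Itgam and 0.40 for Csf1r. Il7r (10.91 in OVA and 10.61 in PBS at P70) made up most of the T and NK cell sum, and 5 of the 13 markers found were expressed. The dendritic cell sum is dominated by Siglech (17.50 in OVA and 17.47 in PBS at P70), which is also on the microglia list. Of the 6 expressed dendritic cell markers, 2 were at least 1.5-fold higher in OVA at P70, Cd209a at 1.30, which is also on the border-associated macrophage list, and Itgax at 0.69. The B cell sum is dominated by Ighm (a difference of 0.32), while Cd79b, a part of the B cell receptor, differed by -0.48.

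With age, the border-associated macrophage sum was 3.36-fold higher at P70 in OVA and 1.24-fold in PBS; Ifi207, Ifi204, Ifi211 and Mndal likewise had larger age differences in OVA than in PBS. The B cell sum was 3.35-fold higher at P70 in OVA and 3.0-fold in PBS. The neutrophil sum was 25.04-fold higher at P70 in OVA and 11.4-fold in PBS, and the monocyte sum 9.08-fold in OVA and 8.54-fold in PBS. In the 7 marker lists 0 markers were listed at 0, since array intensities have no true zero. The part of these cells in the members' values was not tested.

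The genes outside the family whose 4 values, each centred on the gene's own mean, lay nearest to a member were named by Euclidean distance over the 4 arrays. H2-Aa, a chain of the class II major histocompatibility complex, was nearest to Ifi204 (0.17) and to Ifi211 (0.18). It was at 10.71 in OVA and 9.69 in PBS at P70, and at 8.0 in OVA and 8.40 in PBS at P30. Mki67, the proliferation marker Ki-67, was nearest to Ifi207 (0.26) and second to Ifi204 (0.21). Mki67 was under the floor of 7.19 on both P30 arrays, at 6.79 in OVA and 7.13 in PBS. Its likeness to these members at P30 is therefore uncertain. Ubald2 (0.33) was second to Ifi207 and Cox6c2 (0.23) second to Ifi211. Among the members themselves, Ifi204 and Ifi211 were 0.14 apart, closer than either was to H2-Aa.

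Coa3, an assembly factor of cytochrome c oxidase (0.14), and Sft2d3 (0.16) were nearest to Mndal. Coa3 was under the floor in OVA at P30 (6.96). Trappc1, a subunit of a vesicle-tethering complex (0.07), and Cycs, cytochrome c (0.07), were nearest to Ifi209, and Aggf1 (0.0091) and the RNA-binding protein gene Rbm28 (0.019) to Aim2. Short distances are common around a flat pattern such as that of Aim2. With 4 arrays, such a distance describes likeness on these arrays alone.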

How the data were processed

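The deposited values are intensities, 1 per probe set and array, normalized and summarised by the authors; RMA and Affymetrix Expression Console 1.4.1 appear, with no role given, per the submitters' processing notes. RMA writes log2 values, whereas the highest deposited values lay between 873707 and 999952, so the scale was taken as linear. The scaling between arrays and the genome build are not given in the sources used here. Per the labels' protocols, RNA was labelled with biotin after amplification with a WT Pico kit.

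Log2 values were used with no further normalization (Python 3.11.15, pandas 2.3.3). Of 65956 probe sets, 30604 carried 1 symbol and 2146 several; symbols were updated through Entrez ID or synonym with the RefSeq table of GRCm38.p6. Left out were 12542 probe sets of predicted genes, Riken clones, small RNAs, segments of antigen receptors, and olfactory or vomeronasal receptors. The brightest probe set stood for each of the 17787 genes, and 8894 at or above the median mean level of 7.19 were called expressed. With 1 array per group, genes were counted at 1.5-fold. Members and lists were chosen with earlier results of these data known. Named genes were all members, up to 3 of each list with the largest difference in a comparison described, its brightest gene, and the 2 genes nearest to each member. The 13 lists named 213 genes, of which 194 were found. Windows were aligned locally with Biopython 1.88. The counting was checked on simulated data.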

Additional observations from a re-analysis of the deposited data

Results flagged for a closer look

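For 5 of the 6 members the OVA minus PBS difference had opposite signs at the 2 ages, with 1 array in each group; the difference between the ages was not tested. The P70 difference less the P30 difference was 1.65 for Ifi207 (1.24 at P70 and -0.42 at P30), 1.51 for Ifi204 (1.23 and -0.28), 1.28 for Ifi211 (1.10 and -0.18), 1.05 for Mndal (0.89 and -0.15) and -0.027 for Aim2 (-0.02 and 0.0045). Of all 8894 expressed genes, 51.7% had opposite signs, so the sign alone sets no gene apart. The count of 5 rests on Aim2 values near 0 and depends on the scaling: after quantile normalization Aim2 was at 0.018 at P70 and 0.060 at P30, the same sign, and after centring along the level Ifi209 was at -0.00053 at P70 and 0.33 at P30, opposite signs. Ifi207, Ifi204, Ifi211 and Mndal had opposite signs under each of these scalings.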

How the results depend on the processing

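The counts of members at least 1.5-fold apart were recomputed under 9 alternatives: no filter on dim genes, a stricter one or one on the highest array; median centring, quantile normalization or lowess centring along the level; 16 added before log2; the mean over a gene's probe sets; and all gene classes kept. The count for OVA minus PBS was 4 at P70 and 0 at P30 under each of these 9. The count of differences between the ages was 4. Only median centring, quantile normalization, lowess centring and the added 16 could change the members' differences. Each member had 1 probe set, so the mean over probe sets and the added gene classes left its values as they were. The filters changed no member's value and removed none. The age counts were 5 in OVA and 5 in PBS, and 6 and 6 after median centring, where Aim2 passed. An alternative chosen after seeing the data, which counted the shared probe sets for Ifi203 and Ifi205, gave 4 of 8 genes at P70 and 0 of 8 at P30. The P70 difference ranged from 1.07 to 1.35 for Ifi207, 1.06 to 1.35 for Ifi204, 0.94 to 1.19 for Ifi211 and 0.76 to 0.98 for Mndal. Among all genes at least 1.5-fold apart at P70, 76.6% were higher in OVA as deposited, 50.6% after centring along the level, 88.8% after median centring, 88.1% after quantile normalization, 66.4% without the filter and 38.6% with all gene classes kept. No paired analysis was possible because each group had 1 array of pooled material, and no replicate could be left out. The arrays carry no detection calls here, so values near the floor have no known distance from background.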
